A study of Mus musculus with 13 samples.

Results

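The potassium channel genes described here are the genes whose symbol starts with Kcn, which covers pore-forming subunits of the voltage-gated, calcium- and sodium-activated, inward rectifier and two-pore domain channels and part of their accessory subunits. Members were chosen by symbol alone, with a value required in all 13 tumors and at least 10 counts in at least 4 tumors. Among 94 such genes with deposited values, 56 met these conditions, out of 14390 genes that could be tested. The other 38 comprised 19 genes with too few counts, 18 with a value in GEM-BCC tumors alone and 1 with a value in Tp-BCC tumors alone.

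RNA of basal cell carcinoma (BCC) tumors from 2 mouse models was sequenced to compare a transplantable model with its parent. GEM-BCC tumors (9 tumors from 7 mice) arose in the skin of female Ptch1+/- K14-CreER2 p53fl/fl mice after 3 intraperitoneal injections of 300 µg tamoxifen and X-ray irradiation with 4 Gy. The paper writes this transgene as K14-CreERT2. The K14 promoter places the tamoxifen-dependent Cre recombinase in basal keratinocytes, so that p53 is deleted there. GEM2 and GEM3 grew on the same mouse, as did GEM7 and GEM8. Tp-BCC tumors (4 tumors from 4 mice) grew under the skin of the right flank of female Ptch1+/- p53fl/fl mice, which carry no Cre, after inoculation of 2000000 tumor cells. All Tp-BCC tumors descend from a single GEM-BCC tumor, so the spread among them is that of 1 passaged line. The ages of the mice are not given in the sources used here. Total expected counts were 28075317 to 32629102 per GEM-BCC tumor and 15388027 to 17494912 per Tp-BCC tumor, so that 10 counts were worth 0.286 to 0.363 CPM (counts divided by the normalized library size in megacounts) in the GEM-BCC libraries, but 0.589 to 0.714 CPM in those of Tp-BCC. All GEM-BCC libraries formed batch 1 and all Tp-BCC libraries batch 2, so a difference between models and a difference between batches cannot be told apart.

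Potassium channels let potassium leave or enter the cell along its gradient and thereby set the membrane potential. Voltage-gated alpha subunits open on depolarization, calcium- and sodium-activated channels respond to ions inside the cell, inward rectifiers pass potassium mainly inward, and two-pore domain channels carry a background current. In epithelia they take part in volume regulation, in the calcium entry that goes with keratinocyte differentiation and in the cell cycle.

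The Tp-BCC tumors differed among themselves in a way that bears on several members. Across genes, the deviation of a tumor's log2 CPM from the average of the 13 tumors was related to transcript GC content, with a Spearman rho of −0.389 in TP1 and −0.473 in TP3, but of 0.594 in TP2 and 0.591 in TP4. Among GEM-BCC tumors GEM1 stood apart in the same measure, with a rho of 0.365 against −0.312 to −0.15 in the other 8. Over the 56 members GEM1 was the lowest GEM-BCC tumor in 8 and the highest in 11, against 19.5% and 17.6% of all tested genes. It was lowest in Kcnd3, Kcnj2 and Kcnf1, for instance, and highest in Kcnj15 and Kcna5. Of 56 members, 12 were higher in TP1 and TP3 than in both TP2 and TP4, and 27 were lower, which amounts to 21.4% and 48.2% against 35.9% and 43.6% of all tested genes. The difference between these pairs of tumors ran with the GC content of the members (Spearman rho −0.754 across 56 genes, which are not independent replicates), as it did across 14099 genes (−0.79).

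**Figure D1:**
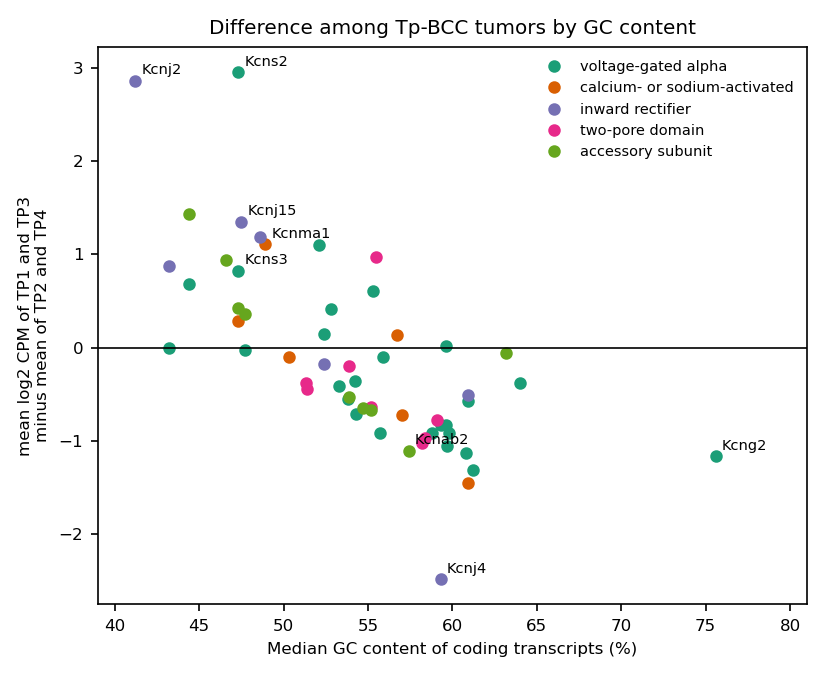
Difference between the mean log2 CPM of TP1 and TP3 and that of TP2 and TP4 (y axis) against the median GC content of coding transcripts in percent (x axis) for the 56 members, colored by channel class. Kcnj2 and Kcns2 lie highest, at 2.86 and 2.95, and Kcnj4 lies lowest, at −2.48.

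Of 26 voltage-gated alpha subunit genes 9 were lower and 2 higher in Tp-BCC tumors, the calcium-activated BK channel gene Kcnma1 was close to absent, and the accessory subunit gene Kcnab2 was higher. Among 56 members, 12 were lower and 4 higher at an adjusted p under 0.05 in edgeR's quasi-likelihood test (21.4% and 7.14%), while of all tested genes 8.35% were lower and 11.1% higher. With a fold threshold added (absolute log2 fold change above 2, called from here on), 8 members were called lower and 1 higher (14.3% and 1.79%, against 3.21% and 2.36% of all tested genes). The median log2 fold change of the members (Tp-BCC over GEM-BCC) was −0.43, against −0.03 over all tested genes, and the 8 members at 3 counts or fewer in every Tp-BCC tumor lie so far below it that pooled ratios or bounds in place of their fitted values leave it at −0.43 by construction. All 4 Tp-BCC tumors lay below all 9 GEM-BCC tumors in 6 members (10.7%, against 4.45% of all tested genes) and above them in 3 (5.36%, against 5.5%). Which tumors let a member pass the filter matters to these counts. Of the 56 members, 35 reached 10 counts in at least 4 tumors of each model (62.5%, against 87.3% of all tested genes) and 19 in GEM-BCC tumors alone (33.9%, against 11.3%), and 7 of the 8 members called lower are among these 19. The filter thereby favors members that are lower in Tp-BCC. Of the 1626 genes that passed through GEM-BCC tumors alone, 23.2% were lower and 1.29% higher at an adjusted p under 0.05, against 7 and 0 of the 19 members (36.8% and 0%). Of the 12568 genes that passed in both models, 6.56% were lower and 11.6% higher, against 5 and 2 of the 35 members (14.3% and 5.71%). Kcna5 passed through Tp-BCC tumors alone, where 90.3% of 103 genes were higher and 0% lower. Kcna6 passed over the tumors of both models together, where 18.3% of 93 genes were higher and 0% lower. The counts are therefore given as a description. Without TP2 and TP4, 4 of 55 tested members were lower and 1 higher (4.51% and 5.87% of all genes tested there), and of the 16 members past the test with all tumors these included Kcnma1, Kcns1 and Kcnf1, with Kcnd1 and Kcns2 added. Kcna5 did not pass the filter there. With at least 10 counts required in at least 10 tumors, 40 members were tested, of which 4 were lower and 2 higher (7.17% and 10.4% of all genes tested there).

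**Figure D2:**
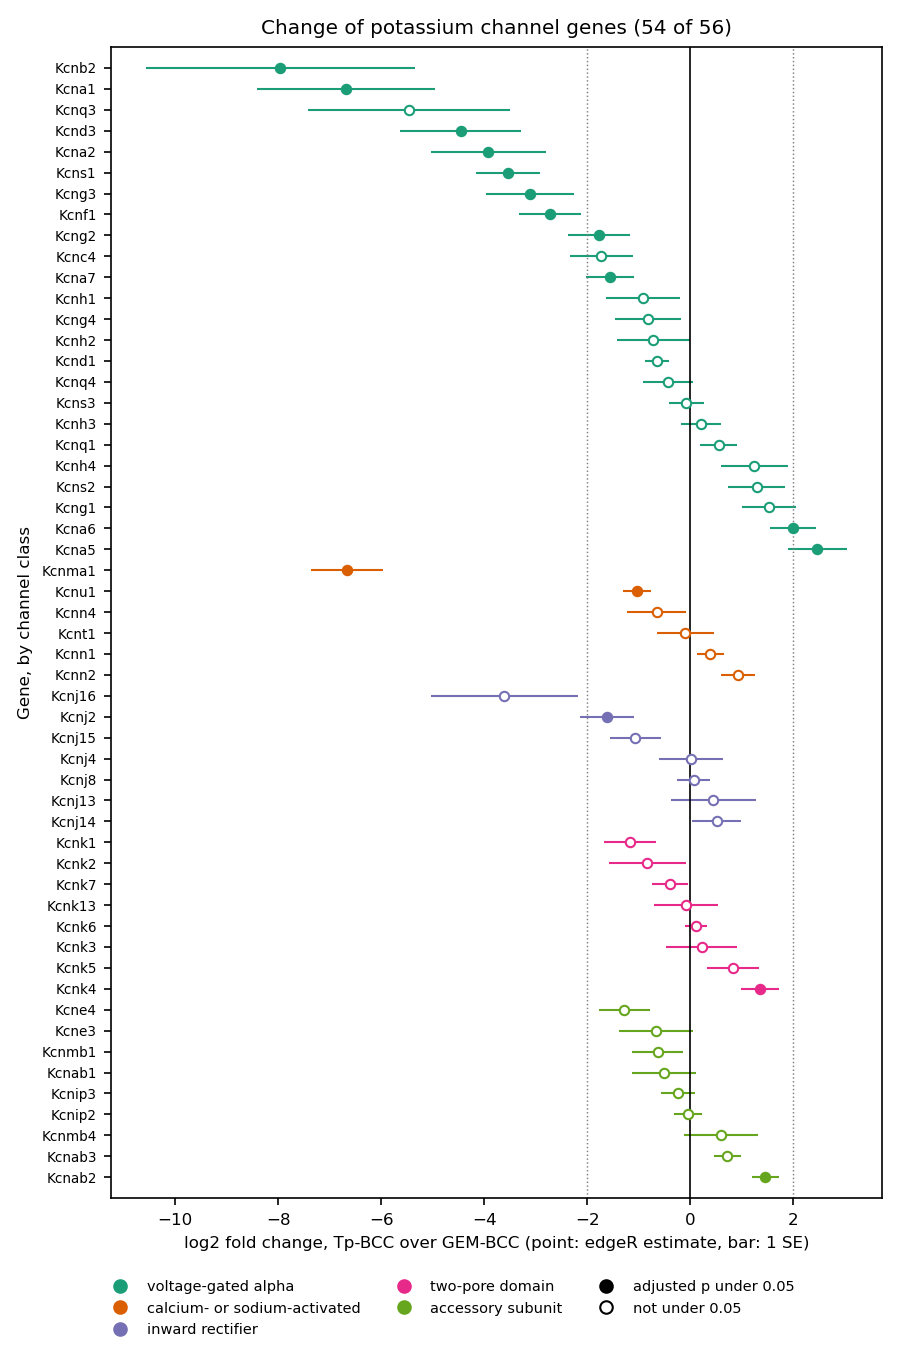
Log2 fold change (Tp-BCC over GEM-BCC) of 54 of the 56 members on the x axis, by channel class, with points for edgeR estimates and bars of 1 SE. Filled points have an adjusted p under 0.05 (16 members), and dotted lines mark a log2 fold change of −2 and 2.

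Promoters are shown for 5 members that changed in opposite directions, 3 of them lower (Kcnma1, Kcns1 and Kcnd3) and 2 higher (Kcna5 and Kcna6). Each sequence runs from 250 bases before to 50 bases after the RefSeq start in GRCm38.p6 and is read on the strand of the gene, with capitals marking CpG dinucleotides.
Kcnma1, chr14:24004156-24004455, minus strand: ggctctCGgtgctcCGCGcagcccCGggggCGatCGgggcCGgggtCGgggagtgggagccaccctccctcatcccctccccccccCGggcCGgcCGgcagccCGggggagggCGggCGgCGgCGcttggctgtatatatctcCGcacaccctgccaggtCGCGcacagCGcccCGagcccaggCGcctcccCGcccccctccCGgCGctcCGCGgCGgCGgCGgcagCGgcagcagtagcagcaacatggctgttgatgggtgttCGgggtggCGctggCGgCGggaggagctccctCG
Kcns1, chr2:164171064-164171363, minus strand: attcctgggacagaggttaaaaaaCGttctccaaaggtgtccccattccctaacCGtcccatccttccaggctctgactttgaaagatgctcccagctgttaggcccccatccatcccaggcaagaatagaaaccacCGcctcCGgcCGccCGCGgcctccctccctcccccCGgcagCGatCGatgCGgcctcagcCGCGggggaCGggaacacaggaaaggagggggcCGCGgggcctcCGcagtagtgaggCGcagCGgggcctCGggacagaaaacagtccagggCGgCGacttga
Kcnd3, chr3:105451640-105451939, plus strand: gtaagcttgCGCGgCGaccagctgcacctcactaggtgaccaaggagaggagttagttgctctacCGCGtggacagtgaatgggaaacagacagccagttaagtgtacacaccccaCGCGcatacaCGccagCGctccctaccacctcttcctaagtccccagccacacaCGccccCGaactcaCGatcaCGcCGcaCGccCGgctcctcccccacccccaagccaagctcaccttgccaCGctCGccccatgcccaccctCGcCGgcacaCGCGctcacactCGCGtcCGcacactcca
Kcna5, chr6:126535506-126535805, minus strand: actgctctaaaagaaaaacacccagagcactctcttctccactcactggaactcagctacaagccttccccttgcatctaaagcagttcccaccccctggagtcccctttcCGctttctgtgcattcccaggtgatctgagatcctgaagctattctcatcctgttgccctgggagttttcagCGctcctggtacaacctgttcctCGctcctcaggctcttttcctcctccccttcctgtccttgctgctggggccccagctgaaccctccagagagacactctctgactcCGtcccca
Kcna6, chr6:126740625-126740924, minus strand: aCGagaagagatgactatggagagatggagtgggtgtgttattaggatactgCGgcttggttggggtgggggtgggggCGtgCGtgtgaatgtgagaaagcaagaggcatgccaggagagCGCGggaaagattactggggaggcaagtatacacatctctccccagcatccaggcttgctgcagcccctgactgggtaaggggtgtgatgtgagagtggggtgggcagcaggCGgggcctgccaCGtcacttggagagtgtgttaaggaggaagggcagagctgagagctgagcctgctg

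The windows of the lower members held 36 (Kcnma1), 22 (Kcns1) and 25 (Kcnd3) CpG dinucleotides, and those of the higher members 4 (Kcna5) and 8 (Kcna6). The median over 32851 promoters was 7, and over the 52 promoters of the 37 members used here it was 9. Any member promoters on a chromosome left out of the search are not among these, while the 32851 promoters were not filtered by chromosome. CpG content did not separate the directions among the other members, since Kcnf1, which was lower, had 3 and Kcna2, which was lower too, had 31. Kcnab2, which was higher, has 3 starts with 3, 5 and 25 CpG dinucleotides. Letter patterns were searched on both strands. The Gli core GACCACCCA was in 0 of 52 member promoters (0.253% of all promoters), TATAAA in 4 (13.6%), the AP-1 pattern TGANTCA in 3 (7.81%), the E-box CANNTG in 40 (72.3%) and the GC box GGGCGG in 26 (35.7%). A match is a run of letters and not a shown binding site, and no match says only that the letters are not in this window.

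Kcnma1 encodes the pore of the BK channel, which opens with calcium and depolarization together, and it had the smallest adjusted p of all members. Its level in GEM-BCC tumors ran from 3.67 CPM (GEM3) over a median of 8.19 to 22.6 CPM (GEM6), while TP1, TP2, TP3 and TP4 had 3, 1, 2 and 0 counts. Every Tp-BCC tumor thus lay below every GEM-BCC tumor. Over pooled counts the level was 105-fold lower in Tp-BCC (95% counting interval 48.4 to 287), and the fitted log2 fold change was −6.66 (SE 0.70, edgeR adjusted p = 1.39e-05). It stayed past the threshold in each of the 24 alternative fits that tested it. Neither tested BK beta subunit gene passed the test. Kcnmb1, the beta subunit best known from smooth muscle, had 0.986 ± 0.581 CPM in GEM-BCC (SD, n = 9) and 0.633 ± 0.286 in Tp-BCC tumors (n = 4; edgeR adjusted p = 0.388), and Kcnmb4 had a log2 fold change of 0.60 (SE 0.73, edgeR adjusted p = 0.586).

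Kcnu1 encodes a channel of the same Slo family that is best known from sperm. Its level was 4.92 to 9.36 CPM in GEM-BCC tumors (median 7.45) and 3.41, 2.96, 3.89 and 3.00 CPM in TP1 to TP4, with no overlap between the models. The log2 fold change was −1.04 (SE 0.27, edgeR adjusted p = 0.0157), and with the GC trend of each tumor as an offset it was −0.66 (edgeR adjusted p = 0.0739). Without TP2 and TP4 its edgeR adjusted p was 0.101. The sodium-activated Kcnt1 and the small and intermediate conductance channels Kcnn1, Kcnn2 and Kcnn4 did not pass the test. Kcnn1, a small conductance channel gene, had 12.2 ± 3.06 CPM over 9 GEM-BCC tumors and 16.0 ± 5.45 over 4 Tp-BCC tumors (SD; n = 9 and n = 4; edgeR adjusted p = 0.303). Kcnn2 had a log2 fold change of 0.93 (SE 0.33, edgeR adjusted p = 0.0584) and passed with the GC offset (1.01, edgeR adjusted p = 0.0265).

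The Shaker-type alpha subunits (Kcna) had 5 tested members, which all passed the test, 3 lower and 2 higher, where 8.35% of all tested genes were lower and 11.1% higher. Kcna1 and Kcna2 had passed the filter through GEM-BCC tumors alone, where 23.2% of genes were lower. Kcna5 had passed through Tp-BCC tumors alone, where 90.3% were higher. The filter favors the direction of these members, so the counts of this family are given as a description. Kcna1, which opens at low depolarization in nerve, had 4 to 252 counts in GEM-BCC tumors and 1, 0, 0 and 0 counts in TP1 to TP4. In CPM, GEM-BCC tumors ran from 0.127 (GEM3) over a median of 0.658 to 8.02 (GEM7), so the Tp-BCC tumors lay below a group that itself covers a 63.4-fold range. The pooled level was 130-fold lower in Tp-BCC (95% counting interval 23.4 to 5147), with an edgeR adjusted p of 0.0144 that rose to 0.126 without TP2 and TP4. Kcna2, its usual partner in heteromeric channels, had 1 to 54 counts in GEM-BCC and 1, 1, 0 and 0 in TP1 to TP4, with GEM3 at 0.0316 CPM inside the Tp-BCC range. Its pooled level was 17.2-fold lower (95% counting interval 4.75 to 142; edgeR adjusted p = 0.0240), and the call was lost without TP2, TP3 or TP4 (edgeR adjusted p 0.0521, 0.0542 and 0.0671), as it was without TP1 and TP3 (0.0680) or without TP2 and TP4 (0.128). Kcna7 had 5.36 ± 2.31 CPM in GEM-BCC and 1.83 ± 0.725 in Tp-BCC tumors, a log2 fold change of −1.56 (SE 0.46, edgeR adjusted p = 0.0272), with overlap between models through GEM5 (1.43 CPM). Without TP1, TP2 or TP3 its edgeR adjusted p was 0.0653, 0.0531 and 0.0660, and it was 0.113 without TP1 and TP3 and 0.0515 without TP2 and TP4.

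Kcna5, a subunit known from cardiac and smooth muscle, was the 1 member called higher. It had 1 to 18 counts in GEM-BCC tumors, or 0.0363 to 0.592 CPM with a median of 0.132, and 13, 16, 11 and 20 counts in TP1 to TP4, or 0.765, 1.03, 0.658 and 1.43 CPM. The Tp-BCC tumors lay above all GEM-BCC tumors, of which GEM1 came nearest. Its log2 fold change was 2.47 (SE 0.58, edgeR adjusted p = 0.00827). Kcna6, another Shaker-type subunit, was as low in counts, with 3 to 12 counts in GEM-BCC (0.0954 to 0.380 CPM, median 0.194) and 10, 19, 12 and 9 in TP1 to TP4 (0.589, 1.22, 0.718 and 0.643 CPM). Its log2 fold change of 2.00 (SE 0.44, edgeR adjusted p = 0.00620) did not exceed the fold threshold, and its edgeR adjusted p was 0.0705 without TP2 and TP4. In RefSeq, Kcna5, Kcna1 and Kcna6 are consecutive protein-coding genes on chromosome 6, and Kcna1, which lies between the others, was lower where they were higher. Beyond them, Ntf3, named after its values were seen as the neighbour of Kcna5, had a log2 fold change of 1.76 (SE 0.51, edgeR adjusted p = 0.0247), and Ndufa9, next to Kcna6, of −0.06 (SE 0.25, edgeR adjusted p = 0.881).

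Kcns1 encodes a silent subunit that conducts only together with Kcnb subunits, and it had the highest level per transcript length among alpha subunits in GEM-BCC tumors (8.12 ± 7.01 CPM per kb, n = 9). GEM-BCC tumors ran from 7.97 CPM (GEM3) over a median of 13.96 to 67.6 CPM (GEM6), and TP1 to TP4 had 1.71, 1.99, 1.32 and 2.57 CPM. The models did not overlap, and 22 to 36 counts stand behind each Tp-BCC value. Its log2 fold change was −3.54 (SE 0.63, edgeR adjusted p = 0.00142), and the gene passed in all 25 alternative fits. Among members called lower it is the 1 that reached 10 counts in at least 4 tumors of each model. GEM6 was highest in both Kcns1 and Kcnma1, and GEM3 lowest in both.

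Of the other silent subunits, Kcnf1 had 6 to 27 counts in GEM-BCC (0.197 to 0.945 CPM, median 0.543) and 1, 2, 1 and 1 counts in TP1 to TP4. It was 6.95-fold lower over pooled counts (95% counting interval 2.98 to 21.4; edgeR adjusted p = 0.00567), with no overlap. Kcng3 had 3 to 29 counts in GEM-BCC (0.0958 to 0.923 CPM, median 0.329) and 2, 0, 1 and 0 in TP1 to TP4, and TP1 (0.118 CPM) lay within the GEM-BCC range. Its pooled level was 9.20-fold lower (95% counting interval 3.15 to 44.6; edgeR adjusted p = 0.0197), but the edgeR adjusted p was 0.0642 without TP2, 0.0586 without TP4 and 0.157 without both. Kcng2 had 6.72 ± 4.39 CPM in GEM-BCC and 1.97 ± 0.946 in Tp-BCC tumors, and with an edgeR adjusted p of 0.0499 (log2 fold change −1.77, SE 0.60) it lay at the threshold. Leaving out GEM2, GEM3, GEM4, GEM6, GEM7 or any of the Tp-BCC tumors took its edgeR adjusted p above 0.05, to 0.1125 at most. It was 0.1925 without TP1 and TP3, 0.0840 without TP2 and TP4 and 0.0626 with counts summed per mouse. Kcng1 lay on the other side of the threshold, with a log2 fold change of 1.53 (SE 0.53, edgeR adjusted p = 0.0534). It had 4.65 CPM in GEM2 and 0.538 to 1.15 CPM in the other 8 GEM-BCC tumors, which all lay below TP1 to TP4 (2.53, 3.67, 2.51 and 5.64 CPM). Without GEM2 its log2 fold change was 2.12 (edgeR adjusted p = 9.92e-04), and without TP2 and TP4 it was 1.03 (edgeR adjusted p = 0.359). With counts summed per mouse Kcng1 passed (1.75, edgeR adjusted p = 0.0112). Kcns2 followed the Tp-BCC pairs, with 6.83 and 7.18 CPM in TP1 and TP3 against 1.86 and 0.357 in TP2 and TP4. It did not pass the test (log2 fold change 1.29, edgeR adjusted p = 0.112) but passed with the GC offset (1.36, edgeR adjusted p = 0.0362). Without TP2 and TP4 its log2 fold change was 2.07 (edgeR adjusted p = 0.0119), and without TP1 and TP3 its direction turned (−0.57, edgeR adjusted p = 0.505).

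Kcnd3 encodes an alpha subunit of the fast transient current. Its level in GEM-BCC tumors ran from 0.329 CPM (GEM1) over a median of 4.22 to 14.3 CPM (GEM9), and TP1 to TP4 had 0.353, 0.321, 0.239 and 0.0714 CPM. GEM1 lay within the Tp-BCC range and the other 8 GEM-BCC tumors above it, GEM8 and GEM3 the nearest. The log2 fold change was −4.45 (SE 1.18, edgeR adjusted p = 0.0163), with an edgeR adjusted p of 0.0533 without TP4 and 0.129 without TP2 and TP4. Its relative Kcnd1, with a far narrower range, had 12.3 ± 1.80 CPM over 9 GEM-BCC tumors and 7.93 ± 2.14 over 4 Tp-BCC tumors (SD; n = 9 and n = 4; log2 fold change −0.64, SE 0.23, edgeR adjusted p = 0.0668). It passed without GEM3 (edgeR adjusted p = 0.0445), without TP4 (0.0218), without TP2 and TP4 (0.0285) and with the GC offset (0.00358). Kcnb2, a delayed rectifier subunit, had 0 counts in GEM1, GEM3 and GEM6, 11 in GEM5 and 39 to 113 in the other 5 GEM-BCC tumors, and 0 counts in all 4 Tp-BCC tumors. With 3 counts over the Tp-BCC group in place of 0 it was at least 23.9-fold lower, and its edgeR adjusted p of 0.0493 rose above 0.05 when any tumor other than GEM1, GEM3 or GEM6 was left out (at most 0.104). It was 0.0522 with counts summed per mouse, 0.0544 with the GC offset, 0.0994 without TP1 and TP3 and 0.1815 without TP2 and TP4.

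Kcnc4, another voltage-gated alpha subunit gene, did not pass the test. It had a log2 fold change of −1.73 (SE 0.61, edgeR adjusted p = 0.0577), and −2.18 with the GC offset (edgeR adjusted p = 0.0191). With counts summed per mouse it passed (−1.71, edgeR adjusted p = 0.0439). Among Kcnq genes, Kcnq3 was low in Tp-BCC, with 0, 0, 2 and 0 counts in TP1 to TP4 and 0 to 299 in GEM-BCC tumors. Its pooled level was 49.1-fold lower (95% counting interval 13.6 to 406), yet its edgeR adjusted p was 0.0615, with 299 of its counts in GEM4. The log2 fold change of Kcnq3 was −5.47, and −3.95 without GEM4 (edgeR adjusted p = 0.0875). With counts summed per mouse its edgeR adjusted p was 0.0447. Kcnq1, the repolarizing channel of heart and many epithelia, had 2.36 ± 0.931 and 3.47 ± 1.28 CPM (edgeR adjusted p = 0.289). The 4 Kcnh genes had log2 fold changes of −0.92 to 1.25, none past the test. Kcnh3 had 6.80 ± 2.66 CPM over 9 GEM-BCC tumors and 7.87 ± 4.32 over 4 Tp-BCC tumors (SD; n = 9 and n = 4; edgeR adjusted p = 0.734).

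**Figure D3:**
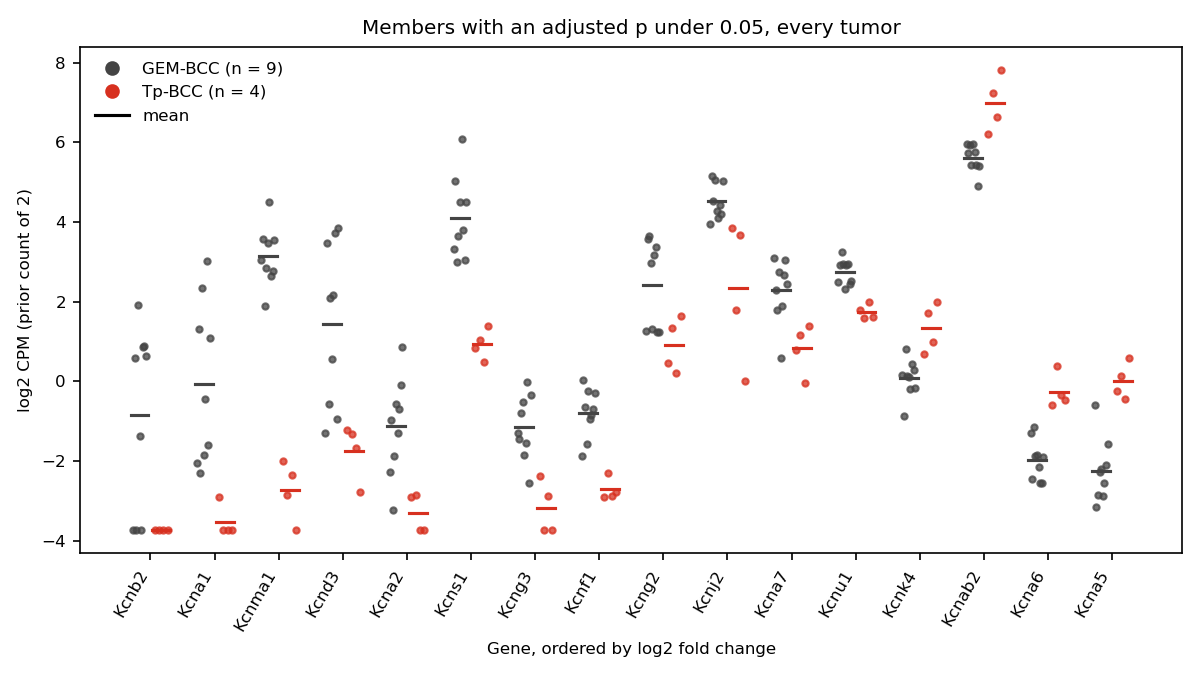
Log2 CPM (y axis, prior count of 2) of the 16 members with an adjusted p under 0.05, with 1 point per tumor (9 GEM-BCC, 4 Tp-BCC) and a line at each mean. Points of Kcnma1 and Kcns1 are separated by model, and those of Kcnb2, Kcna1 and Kcnd3 are spread widely among GEM-BCC tumors.

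Of 7 inward rectifier genes, 1 passed, where 19.4% of all tested genes passed in either direction. Kcnj2, the classical inward rectifier of heart and muscle, had 15.3 to 35.5 CPM in GEM-BCC tumors (median 21.5) and 14.3, 3.41, 12.8 and 0.928 CPM in TP1 to TP4. All Tp-BCC tumors lay below all GEM-BCC tumors, but TP1 and TP3 were close to the lowest of them, GEM1, whereas TP2 and TP4 were far below. The log2 fold change was −1.61 (SE 0.52, edgeR adjusted p = 0.0431), and it was −0.83 without TP2 and TP4 (edgeR adjusted p = 0.140), −3.45 without TP1 and TP3 (3.52e-04) and −1.49 with the GC offset (0.0104). Leaving out any tumor other than GEM1, GEM8, TP1 or TP3 took its edgeR adjusted p above 0.05, to 0.129 at most, and with counts summed per mouse it was 0.0672. Kcnj15, an inward rectifier of epithelia, had 3.52 to 53.4 CPM in GEM-BCC (median 28.3) and 18.0, 10.7, 20.0 and 5.07 CPM in TP1 to TP4. These values overlap (log2 fold change −1.06, SE 0.50, edgeR adjusted p = 0.143), and without TP1 and TP3 the log2 fold change was −1.82 (edgeR adjusted p = 0.0449). Without GEM2, the lowest GEM-BCC tumor, the log2 fold change was −1.21 (edgeR adjusted p = 0.0322). Kcnj16 had 0, 4 and 1 counts in GEM3, GEM8 and GEM1, 7 to 66 in the other GEM-BCC tumors and 3, 0, 0 and 0 in TP1 to TP4 (pooled level 12.5-fold lower, 95% counting interval 4.27 to 60.5; edgeR adjusted p = 0.0876). With counts summed per mouse its edgeR adjusted p was 0.0486. The vascular KATP pore gene Kcnj8 had 3.19 ± 0.872 CPM in GEM-BCC and 3.34 ± 0.940 in Tp-BCC tumors (edgeR adjusted p = 0.902).

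Two-pore domain genes showed 1 member past the test among 8, against the same 19.4% of all tested genes. Kcnk4, a mechanically and heat gated channel, had 1.03 ± 0.336 CPM over 9 GEM-BCC tumors and 2.65 ± 1.12 over 4 Tp-BCC tumors (SD; n = 9 and n = 4), with 1.53, 3.21, 1.92 and 3.93 CPM in TP1 to TP4. GEM3 (1.68 CPM) lay above TP1, so the models overlapped. The log2 fold change was 1.36 (SE 0.37, edgeR adjusted p = 0.0187), and the edgeR adjusted p was 0.0763 without TP2 and 0.0973 without TP4. Without both, the log2 fold change was 0.73 (edgeR adjusted p = 0.318). Kcnk6, with 13.1 ± 2.3 and 14.2 ± 2.26 CPM (log2 fold change 0.12, SE 0.21, edgeR adjusted p = 0.721), did not pass the test. Kcnk2 ran from 0.254 CPM in GEM2 to 21.7 CPM in GEM1, with 2.75 to 4.57 CPM in Tp-BCC tumors between these (edgeR adjusted p = 0.456).

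Accessory subunits held the highest levels per transcript length. In GEM-BCC tumors Kcnip3 had 17.5 ± 8.30, Kcnip2 16.9 ± 5.98 and Kcnab2 12.8 ± 2.85 CPM per kb of the longest coding transcript (n = 9), and the next gene, Kcns1, had 8.12 ± 7.01. The first 3 do not differ from each other beyond their spread. In Tp-BCC tumors the order was Kcnab2 (35.1 ± 17.1 CPM per kb, n = 4), Kcnip2 (16.4 ± 3.51) and Kcnip3 (14.8 ± 3.81), and Kcns1 was in place 31 of 56. Kcnab2, a cytoplasmic beta subunit with an oxidoreductase fold, had 29.9 to 62.1 CPM in GEM-BCC tumors (median 53.4) and 73.8, 151, 100.3 and 226 CPM in TP1 to TP4. Each Tp-BCC tumor exceeded each GEM-BCC tumor, TP2 and TP4 by the most. The log2 fold change was 1.46 (SE 0.26, edgeR adjusted p = 0.00143), with 1.05 under the GC offset (edgeR adjusted p = 7.29e-04) and 0.79 without TP2 and TP4 (edgeR adjusted p = 0.0599).

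Neither tested calcium-binding partner of Kcnd channels passed the test. Kcnip3, which also acts as a transcriptional repressor, had 22.9 to 98.8 CPM in GEM-BCC (median 47.0) and 31.4, 50.5, 31.5 and 48.4 CPM in TP1 to TP4 (log2 fold change −0.24, SE 0.33, edgeR adjusted p = 0.637). Kcnip2 had 23.6 to 68.0 CPM in GEM-BCC (median 35.6) and 32.8, 44.2, 31.6 and 48.6 CPM in TP1 to TP4 (log2 fold change −0.04, SE 0.27, edgeR adjusted p = 0.935). Both ranges enclosed the Tp-BCC values. Kcne4, an inhibitory subunit, had 10.1 ± 6.93 and 4.16 ± 0.724 CPM (edgeR adjusted p = 0.0861), with 0.0308 without GEM3 and 0.0184 with counts summed per mouse.

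Summed over members, the total CPM of potassium channel genes was 424 ± 50.2 over 9 GEM-BCC tumors and 398 ± 96.9 over 4 Tp-BCC tumors (SD; n = 9 and n = 4), a difference smaller than either SD. No test was run on the sums. Voltage-gated alpha subunits summed to 133.9 ± 39.2 CPM in GEM-BCC and 76.4 ± 12.9 in Tp-BCC tumors, and inward rectifiers to 57.75 ± 10.1 and 26.9 ± 12.7. TP2 (81.5 CPM) and TP4 (92.2 CPM) exceeded GEM3 (77.4 CPM) in the first of these sums, and in the second all Tp-BCC tumors were below all GEM-BCC tumors. The inward rectifier sum came mostly from Kcnj15 and Kcnj2. Kcnj15 had 28.1 ± 13.2 CPM in GEM-BCC and 13.4 ± 6.85 in Tp-BCC tumors. Kcnj2 had 24.0 ± 7.69 and 7.85 ± 6.66 CPM. Only 3 of the 7 inward rectifier genes had a negative log2 fold change, with a class median of 0.02. Calcium- and sodium-activated channels summed to 37.1 ± 8.54 and 28.2 ± 6.20 CPM, and two-pore domain channels to 37.9 ± 9.40 and 33.6 ± 7.15 CPM. Accessory subunits summed to 157.5 ± 39.2 and 232.5 ± 84.35 CPM, a difference smaller than that of Kcnab2 alone (50.2 ± 11.2 and 137.8 ± 66.9 CPM). In that sum TP1 (152.7 CPM) and TP3 (177.8 CPM) lay within the GEM-BCC range, and TP2 (261.3 CPM) and TP4 (338.1 CPM) above it.

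**Figure D4:**
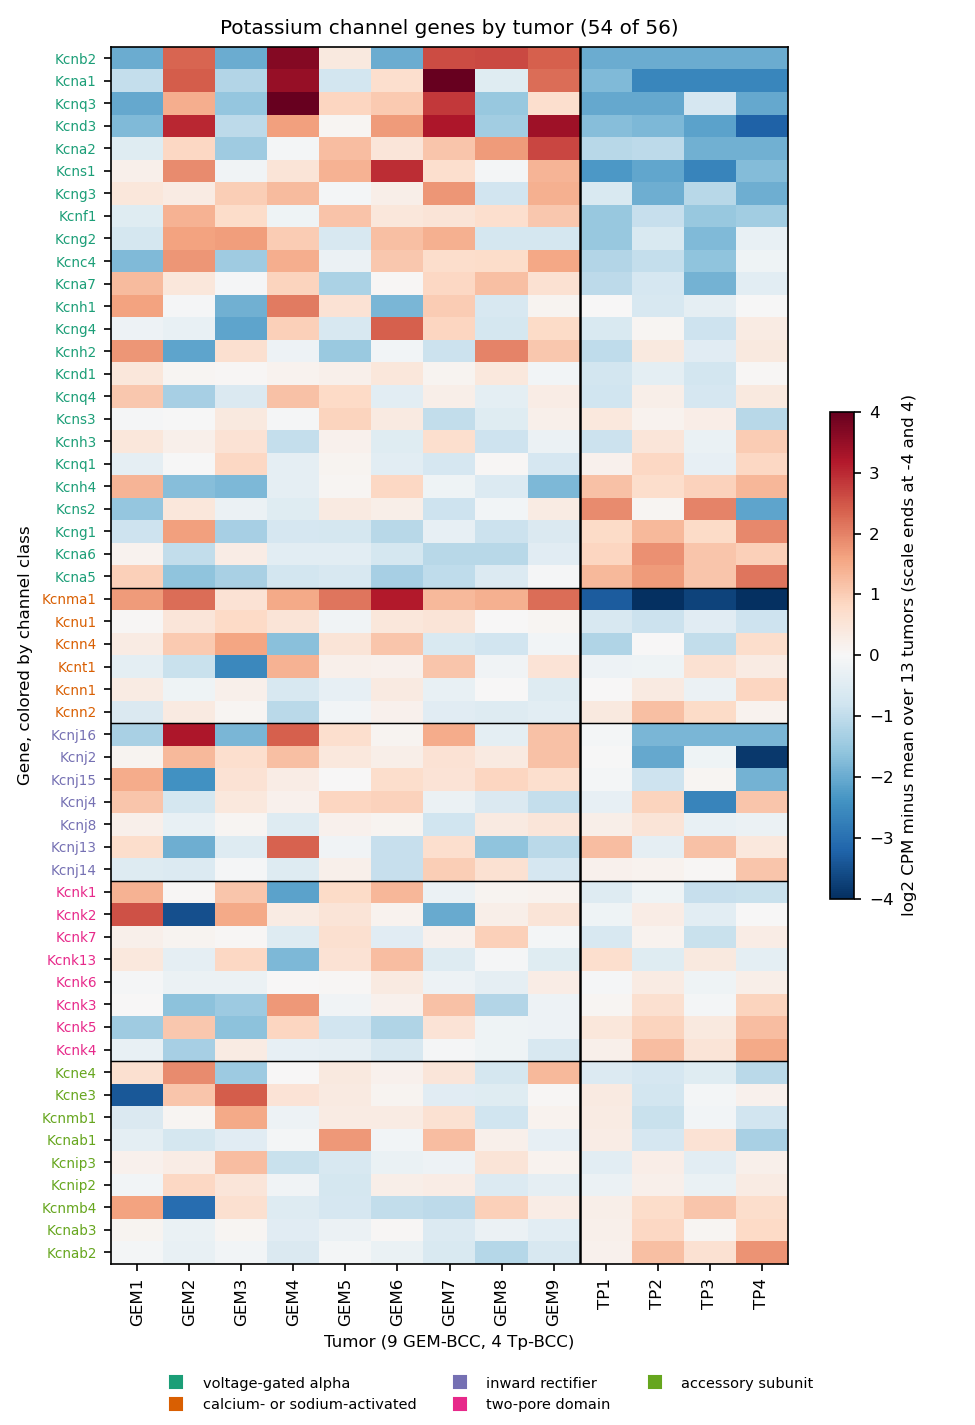
Log2 CPM of 54 of the 56 members (rows, by channel class) in each of the 13 tumors (columns) relative to the mean over the tumors of that gene, with a color scale that ends at −4 and 4. Kcnma1 separates the models, and Kcnb2, Kcna1, Kcnq3 and Kcnd3 are high in part of the GEM-BCC tumors.

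Potassium channel genes also varied within each model. The SD of log2 CPM was larger among GEM-BCC than among Tp-BCC tumors for 41 of 56 members (73.2%), against 37.2% of all tested genes. With the GC trend removed the shares were 85.7% and 55.4%, and with GEM-BCC counts thinned to the depth of Tp-BCC libraries they were 73.2% and 38.4%. Members near 0 counts in every Tp-BCC tumor can hardly vary there, since a prior count of 2 is added. Over genes that reached 10 counts in at least 4 tumors of each model, an alternative chosen after seeing the data, the SD was larger among GEM-BCC tumors for 24 of 35 members (68.6%), against 34.6% of 12568 genes. Kcnb2, Kcnq3, Kcnd3 and Kcna1 had the largest SDs (2.32, 2.27, 2.07 and 2.04 on the log2 scale among GEM-BCC tumors).

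**Figure D5:**
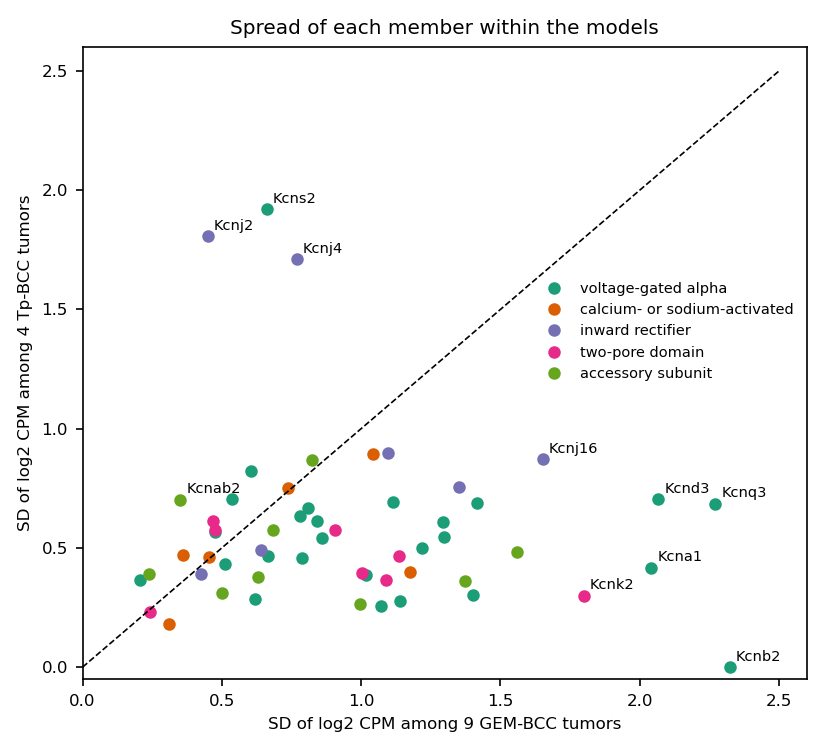
SD of log2 CPM among the 4 Tp-BCC tumors (y axis) against the SD among the 9 GEM-BCC tumors (x axis) for the 56 members, with a dashed line of equality. In 41 members the SD was larger among GEM-BCC tumors, and Kcnj2, Kcns2 and Kcnj4 lie farthest on the other side.

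Part of this spread lay within single mice. GEM2 and GEM3, from the same mouse, differed by more than 4-fold in 15 of 56 members (26.8%, against 5.87% of all tested genes), and GEM7 and GEM8 in 10 (17.9%, against 4.73%). Kcnd3, for instance, had 306 counts in GEM2 and 19 in GEM3, and 411 in GEM7 and 14 in GEM8. Kcnk2 ran the other way in the first mouse, with 7 counts in GEM2 and 342 in GEM3. Other such differences rest on few counts, as with Kcnmb4 (0 in GEM2 and 28 in GEM3) and Kcnj16 (66 and 0). The shares over all tested genes were not matched to the members for level.

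Markers of other cell types moved along with the models. In bulk tumors, fewer cells of a type and less RNA per cell cannot be told apart. The 14 markers of BCC and basal epithelium, with Krt5 the most abundant, summed to 17370 ± 2403 CPM over 9 GEM-BCC tumors and 16810 ± 6425 over 4 Tp-BCC tumors (SD; n = 9 and n = 4), with 1 gene lower and 1 higher at an adjusted p under 0.05. Markers of differentiated epidermis, with Dsg1a the most abundant, summed to 146 to 529 CPM in GEM-BCC tumors, with 59.5 to 104 CPM in Tp-BCC (3 of 8 tested lower). Those of hair shaft and inner root sheath (Krt75 the most abundant) summed to 18.7 to 303 and 3.95 to 5.79 CPM (3 of 7 lower), and those of sebaceous gland (Krt79) to 112 to 1469 and 53.5 to 223 CPM (1 of 4 lower). The last 2 sums were mostly 1 keratin each in GEM-BCC tumors. Krt75 averaged 102 CPM of a mean hair sum of 120 CPM, and Krt79 averaged 614 CPM of a mean sebaceous sum of 752 CPM. Krt79 was also the 1 sebaceous marker that was lower. GEM1, GEM3 and GEM8, the lowest GEM-BCC tumors in Kcnd3 and Kcnq3, also had the lowest sums of each of these 3 lists, with 43.8, 23.8 and 18.7 CPM for the hair list against 46.0 CPM or more in the other 6. GEM5, with the highest hair sum (303 CPM), had 17 counts of Kcnq3 and 1.40 CPM of Kcnd3, and GEM9, with the highest Kcnd3, had 46.0 CPM in the hair list. The part of skin appendage cells in the lower channel genes was not tested.

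Endothelial markers (Cdh5 the most abundant) summed to 126 to 314 CPM in GEM-BCC tumors, with 398 to 523 CPM in Tp-BCC (5 of 10 higher). Adipocyte markers (Lpl) summed to 8.20 to 22.0 and 24.9 to 231 CPM (4 of 5 higher, Retn at 0 in all GEM-BCC tumors), the highest in TP2. Skeletal muscle markers (Acta1) summed to 4.22 to 9.30 CPM in GEM-BCC tumors, with 2.06 to 158 CPM in Tp-BCC, with the highest value in TP4 (1 of 5 higher), and Schwann cell and nerve markers (Ngfr) to 105 to 300 and 179 to 369 CPM (2 of 8 higher, Cdh19 at 0 in all GEM-BCC tumors). The 1 higher muscle gene was Atp2a1. Among the nerve markers Prx and Scn7a were the 2 higher, while Ngfr did not pass (log2 fold change 0.40, edgeR adjusted p = 0.515). Kcna5 and Kcnab2 were highest in TP4, and their relation to these cell types was not tested. For the other lists, 2 of 10 fibroblast markers were lower and 3 higher, 2 of 10 smooth muscle and pericyte markers and 1 of 10 macrophage markers were higher, 2 of 4 neutrophil and 2 of 3 blood markers were lower, and 0 of 3 melanocyte, 0 of 2 T cell and 0 of 1 B cell markers passed edgeR's test.

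Other genes of potassium handling were taken from a list of 55 pumps, cotransporters, channel partners and kinases, of which 44 were tested. At an adjusted p under 0.05, 6 were lower and 3 higher (13.6% and 6.82%, against 8.35% and 11.1% of all tested genes), with a median log2 fold change of 0.08 against −0.03. Without TP2 and TP4 only 3 partner genes passed, and 5 passed with at least 10 counts required in at least 10 tumors. Values of single partner genes in these alternative fits are not given here. Sodium pump genes moved in opposite directions. Atp1b1, a beta subunit of the sodium pump, had 2.43 to 19.7 CPM in GEM-BCC (median 8.33) and 1.35, 1.09, 1.32 and 1.21 CPM in TP1 to TP4, with no overlap (log2 fold change −2.78, SE 0.59, edgeR adjusted p = 0.00452). Fxyd5, a pump modulator, had 13.9 to 44.3 CPM (median 18.2) and 79.5, 62.4, 68.0 and 79.7 CPM, with all Tp-BCC tumors above all GEM-BCC tumors (log2 fold change 1.67, SE 0.28, edgeR adjusted p = 8.32e-04). Fxyd4, of the same family, had 5 to 86 counts in GEM-BCC tumors and 1, 1, 3 and 3 in TP1 to TP4, with GEM2 (0.182 CPM) below TP4 (0.214 CPM). Its pooled level was 8.47-fold lower (95% counting interval 4.3 to 19.6; edgeR adjusted p = 0.0162). The proton-potassium pump gene Atp12a had 0.158 to 7.98 CPM in GEM-BCC tumors, the highest in GEM4, and 0 CPM in all Tp-BCC tumors except TP3 at 0.0599, which is a single count (pooled level 86.6-fold lower, 95% counting interval 15.5 to 3420; edgeR adjusted p = 0.0188). GEM4 held 242 of its counts and the other GEM-BCC tumors 5 to 54 each, so this pooled level rests largely on GEM4.

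Among kinases that act on channels and cotransporters, Wnk2 had 0.980 to 11.5 CPM in GEM-BCC (median 5.85) and 0.294, 0.321, 0 and 0.357 CPM in TP1 to TP4 (log2 fold change −4.59, SE 0.78, edgeR adjusted p = 0.00102). Sgk1 was lower as well, from 110 ± 49.2 to 46.6 ± 7.72 CPM (−1.24, edgeR adjusted p = 0.0104), while Stk39 was higher, from 11.8 ± 5.95 to 30.2 ± 11.1 CPM (1.35, edgeR adjusted p = 0.0179), with overlap between models through GEM8 (23.4 CPM). The pacemaker channel gene Hcn4 was lower (−3.27, edgeR adjusted p = 0.00943), with 5, 3, 1 and 3 counts in TP1 to TP4 and GEM3 (0.127 CPM) within the Tp-BCC range, and the volume-regulated anion channel subunit gene Lrrc8c was higher (1.27, edgeR adjusted p = 0.0125), with GEM1 (31.3 CPM) above TP4 (30.8 CPM).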

How the data were processed

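Poly(A) RNA of 13 tumors was sequenced with 1 library per tumor. According to the authors, reads were cleaned, aligned to GRCm39 with Bowtie2 2.3.4.3 and quantified with RSEM 1.3.1 in its strand-specific mode, and the values they deposited are expected counts per gene symbol, neither normalized nor rounded. How genes without a value in a model arose is not given in the sources used here.

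R 4.3.3 was used on expected counts rounded to whole numbers. A gene entered the fit if all 13 tumors had a value for it and 4 or more had 10 counts or more, and was tested with edgeR 4.0.16 (TMM, robust quasi-likelihood F test, 2-sided, no covariate), with Benjamini-Hochberg adjustment over 14390 genes. The SE is the absolute log2 fold change divided by the square root of F. Counting intervals are exact Poisson intervals (95%) of the pooled Tp-BCC counts and, like the floor of 3 counts, cover counting error only. Log2 CPM had a prior count of 2. The study's own test, DESeq2 (1.42.0), was among the alternatives. GC content and length came from coding transcripts of GENCODE vM21 (GRCm38), matched by symbol for all 56 members, and sequences from RefSeq, with 37 members used. The GC offset is a lowess trend (span 0.3) per tumor. Fits were checked on simulated counts.

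Genes named are the members with an adjusted p under 0.05, the 10 of highest mean log2 CPM, the highest of each family and partner genes past the test, and others (Kcnmb4, Kcnt1, Kcnn2, Kcnn4, Kcng1, Kcns2, Kcnc4, Kcnq3, Kcnj4, Kcnj8, Kcnj16, Kcnk2 and the neighbours on chromosome 6) were chosen after their values were seen. Of the members under this rule, 2 are not reported here. Members and lists were chosen with earlier results of these data known.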

Additional observations from a re-analysis of the deposited data

Results flagged for a closer look

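Of 56 groups of values (28 named members in each model), 2 had a tumor that stood apart from its group by Dixon's criterion at the 95% level on log2 CPM, where chance alone gives about 1 in 20 groups. Kcnj15 was at 3.52 CPM in GEM2, against 19.3 CPM in the next lowest GEM-BCC tumor. Kcna1 was at 0.0589 CPM in TP1, which is a single count, against 0 in the other Tp-BCC tumors, a gap that this depth cannot resolve.

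Kcnip1, a calcium-binding partner of Kcnd channels, could not be compared because it has no value in Tp-BCC tumors. In GEM-BCC tumors it had 54 to 424 counts (median 119), far above the floor of 3 counts, with the highest counts in GEM6 (424) and GEM5 (350). Whether its absence from the Tp-BCC values reflects low expression was not tested.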

How the results depend on the processing

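Besides the fit reported, 25 other settings were run for the test across genes, and no call reversed. Kcnma1 and Kcns1 passed in every setting that tested them. Where 10 counts were required in 10 tumors or more, 4 members were lower, 2 higher and 1 called, and 5 partner genes passed; fewer genes are tested there. DESeq2's test gave 18 lower, 7 higher and 12 called, with 12.9% of all genes lower and 13.1% higher. With counts summed per mouse, 13 were lower and 5 higher, with 8% of all genes lower and 10.1% higher. Kcnj2, Kcng2 and Kcnb2 were lost there (edgeR adjusted p 0.0672, 0.0626 and 0.0522), and Kcnq3, Kcnj16, Kcng1, Kcne4 and Kcnc4 were added. Without TP2 and TP4, 4 were lower, 1 higher and 4 called, and 3 partner genes passed; fewer tumors enter there. With an absolute log2 fold change above 1 as threshold, 16 of 56 were called, against 13.8% of all genes in either direction. The count of members with a larger SD among GEM-BCC tumors moved from 41 of 56 to 24 of 35 over genes that passed the filter in both models, a setting chosen after seeing the data; fewer genes enter there. With the replicate number as a block (replicate block), 2 were lower, 0 higher and 2 called, and 1 partner gene passed, against 178 of all genes in place of 2792. Samples share only a number there, since same-numbered tumors deviated from their group means with correlations of −0.381, −0.122, −0.101 and −0.179. Leaving out each tumor in turn gave 6 to 14 lower (6 without TP2, 7 without TP4), 3 to 6 higher, with 4.69% (without TP2) to 9.8% (without GEM3) of all genes lower, 6.02% without TP4, and 6.09% to 11.9% higher. It gave 6 to 11 called, 6 to 10 partner genes and a median log2 fold change of −0.55 to −0.34. The cause was not tested for these changes. Calls on members at 3 counts or fewer in Tp-BCC tumors are limited by depth.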
